A study of Homo sapiens with 6 samples.

Results

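The miRNAs described here run from miR-6716 to miR-6895 and from miR-7106 to miR-7114, a stretch of late miRBase names held mostly by hairpins cut from introns. They were taken from the table of mature miRNAs by name alone, with any arm, and 111 of the 1000 listed mature miRNAs have such a name. They come from 91 hairpins, with 46 listed 5p arms and 65 listed 3p arms. The libraries were made from HEK 293T cells, an immortalized human embryonic kidney line, grown untreated in DMEM with fetal bovine serum. In ΔTUT4/7 cells both uridylyltransferases TUT4 and TUT7 (TENT3A/B) were knocked out, and wild type cells kept both. Each strain gave 3 libraries of biological replicates. The knockout is 1 strain, so the loss of the enzymes and any other difference of that strain cannot be told apart. The deletion itself cannot be checked from mature miRNAs.

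Most miRNAs are cut from a longer transcript by the nuclear enzyme DROSHA and then by DICER in the cytoplasm. A mirtron skips DROSHA. The spliceosome cuts out a short intron, the lariat is opened, and the intron itself folds into a hairpin that DICER can cut. The first bases of such a 5p arm are the splice donor and the last bases of its 3p arm are the splice acceptor. In a tailed mirtron only one end of the hairpin is made by splicing, and extra intron sequence at the other end has to be trimmed. TUT4 and TUT7 add uridines to the 3′ ends of RNAs, miRNA precursors among them, which can mark them for decay or change how they are cut.

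The annotation bore out the intronic origin. Of the 111 arms, 109 lie in an intron of a gene on the same strand (GENCODE 44, hg38), and for 103 the hairpin ends within 10 nt of the 3′ end of that intron. For 17 arms of 13 hairpins the hairpin also begins within 10 nt of the 5′ end of an intron of at most 200 nt, so that hairpin and intron are nearly the same. A further 4 arms of 3 hairpins begin at the intron start but stop short of its end, and 86 arms of 72 hairpins lie at the intron end with more sequence before them. The last 4 arms lie at neither end. Introns were read from 1 annotation, in which 34 of the arms also fall in an exon of another transcript of a coding gene. Where several introns held an arm, the shortest one of a coding gene was used, or the shortest of any gene if none was coding. That choice favours short introns.

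The hairpins below show both kinds of place, with the bases at the ends of the intron in capitals. They were read from RefSeq (GRCh38.p14), 5′ to 3′. The first 3 span an intron of 87, 92 and 87 nt in JAG2 (a Notch ligand), TRIM28 (a co-repressor of transcription) and LMNB2 (a nuclear lamin), at chr14:105150778-105150864 on the minus strand, chr19:58550285-58550376 on the plus strand and chr19:2434914-2435000 on the minus strand.
MIR6765: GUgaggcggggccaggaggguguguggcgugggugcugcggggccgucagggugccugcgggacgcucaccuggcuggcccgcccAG
MIR6807: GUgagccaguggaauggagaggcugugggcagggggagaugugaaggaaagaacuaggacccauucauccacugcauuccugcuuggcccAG
MIR7108: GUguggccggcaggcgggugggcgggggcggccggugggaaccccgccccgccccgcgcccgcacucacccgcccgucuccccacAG

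The next 3 hold only the intron end. They follow 1181, 211 and 23 nt of other intron sequence in ABCC10 (a membrane transporter), GPR108 and RUVBL2 (an ATPase of chromatin remodelling complexes), at chr6:43434542-43434620 on the plus strand, chr19:6736712-6736778 on the minus strand and chr19:49009906-49009972 on the plus strand.
MIR6780B: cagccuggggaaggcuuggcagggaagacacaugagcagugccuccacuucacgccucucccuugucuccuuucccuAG
MIR6791: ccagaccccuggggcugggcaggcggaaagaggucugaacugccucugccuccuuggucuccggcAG
MIR6798: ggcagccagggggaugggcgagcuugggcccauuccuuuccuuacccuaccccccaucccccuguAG

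The splice signals show in the mature arms as well. Of the 46 listed 5p arms, 11 (23.9%) begin with GU, against 12 of 345 (3.48%) among all other listed 5p arms. Of the 65 listed 3p arms, 52 (80%) end in AG, against 33 of 355 (9.30%) elsewhere. The median G+C content was 60.9% here and 50% among all other listed miRNAs. These features follow from where the hairpins lie and do not bear on the strains.

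All 111 arms were rare. Library totals ran from 4338558 to 7967606 counts, with wild type replicate 2 the deepest, and the median count of an arm was between 3 and 7 in a library. Between 95 and 105 of the 111 arms had a count in each library, and 66 had a mean of under 1 CPM, the count scaled to a library total of 1e6. Only 5 exceeded 5 CPM. Summed over all 111 arms, the level was 145, 185 and 217 CPM in ΔTUT4/7 replicates 1, 2 and 3 and 178, 169 and 155 CPM in the wild type ones, so the strains overlapped.

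The strains were compared with edgeR's quasi-likelihood test over the 826 miRNAs whose highest count in any library exceeded 7. An arm was called increased or decreased at a change of at least 2-fold with a Benjamini-Hochberg adjusted p under 0.05 over all 826. Of the 111 arms, 69 were tested and 42 were not. The limit itself leans on the strains, since 28 of the 69 passed it in both, 14 only in ΔTUT4/7 and 27 only in wild type libraries, 14 of the latter only in wild type replicate 2. An arm that passed only where it was high had to differ, and this holds for 8 of the 11 increased and 9 of the 11 decreased arms. Counts of calls and medians over tested arms are therefore descriptions, and sums over all listed arms, which need no limit, stand beside them.

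Of the 69 tested arms, 11 (all miRNAs: 16.5%) were increased in ΔTUT4/7 and 11 (all miRNAs: 13.6%) were decreased. The median log2 fold change of the tested arms was -0.35, beside 0.013 over all 826. In each of the 22 called arms the libraries of the strains did not overlap in CPM. The arms were called on these same libraries, which favours that separation, so it is no separate support. Among all 69, 14 had every ΔTUT4/7 library above every wild type library and 21 had every one below. Over all tested miRNAs, 28.8% had every ΔTUT4/7 library above every wild type library and 29.5% had every one below.

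**Figure D1:**
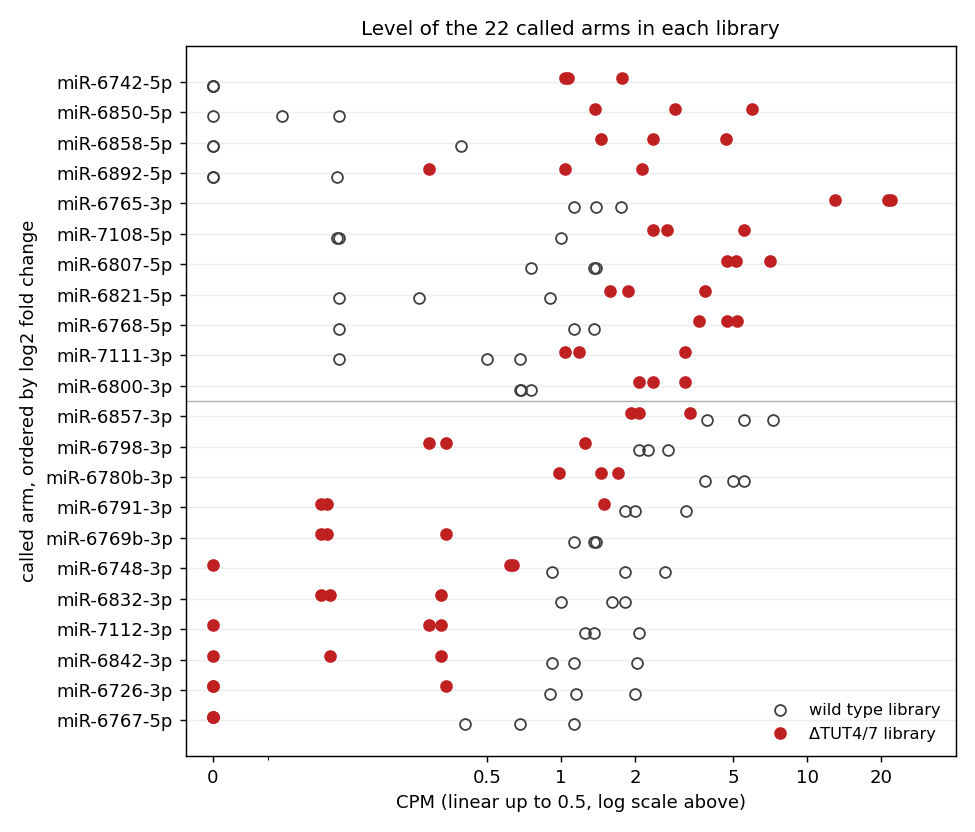
Level of the 22 called arms in each library, with CPM on the horizontal axis (linear up to 0.5, log scale above) and 1 arm per row, ordered by log2 fold change. Filled points are ΔTUT4/7 libraries and open points wild type libraries, and in each row the 3 filled points lie on one side of the 3 open points, most of them below 5 CPM. The arms were called on these same libraries, which favours that separation.

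The called arms differed by the place of their hairpin. This split was chosen after the values were seen and has no test of its own. Among the 13 tested arms of hairpins that begin at the intron start, 8 (61.5%) were increased and 1 (7.69%) was decreased. Their median log2 fold change was 2.26. Among the 52 tested arms of hairpins at the intron end only, 3 (5.77%) were increased and 10 (19.2%) were decreased. The median there was -0.65. Over all 826 tested miRNAs the shares were 16.5% increased and 13.6% decreased. The 4 tested arms at neither end had no call. With the start of the hairpin held to within 1 nt of the intron start, 9 arms were left, of which 7 were increased and none decreased, and all 9 had a log2 fold change above 0. Of these 9, only miR-6765-3p and miR-7108-5p passed the count limit in both strains. The others passed it in ΔTUT4/7 only, so their sign leans on that limit. The untested arms of this kind went in both directions. Every decreased arm at the intron end except miR-6780b-3p passed the count limit in wild type only, so their sign leans on it too. At the intron end, miR-6742-5p and miR-6767-5p had no count in one of the strains, and bounds are given for them further on. At those bounds each stays on the same side of the median, so the median could not move.

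**Figure D2:**
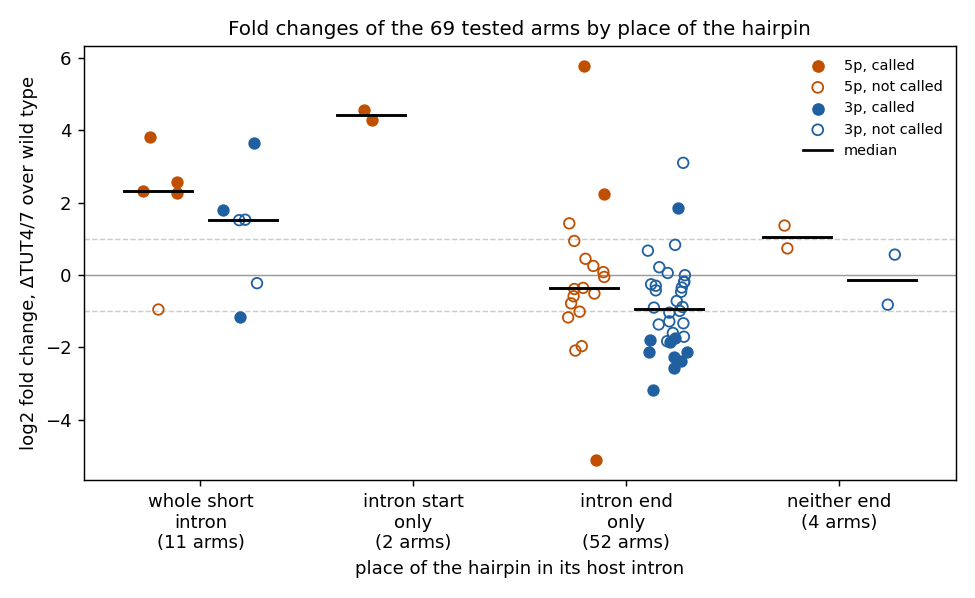
log2 fold change (ΔTUT4/7 over wild type) of the 69 tested arms, grouped by where the hairpin lies in its host intron. Filled points are called arms, bars are medians and dashed lines mark a 2-fold change. 8 of the 13 arms at the left are increased, while 9 of the 34 tested 3p arms at the intron end are decreased. Over all tested miRNAs 16.5% are increased, and over all tested 3p arms 15.1% are decreased.

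The sums over every listed arm, tested or not, gave the same order. They include the called arms, so they are no separate support for the split. The 21 listed arms of hairpins at the intron start summed to 37.6, 53.02 and 61.9 CPM in ΔTUT4/7 replicates 1, 2 and 3 and to 19.7, 16.1 and 14.98 CPM in wild type. All ΔTUT4/7 libraries thus lay above all wild type ones, and the ratio of the means was 3.00. The miR-6765 hairpin made up much of this, and without its arms the sums were 24.04, 30.98 and 39.5 CPM against 18.6, 14.3 and 13.4 CPM, still without overlap. That gap lay in the 5p arms. Without miR-6765, the 11 other 5p arms summed to 15.6, 20.6 and 30.7 CPM in ΔTUT4/7 and to 5.21, 4.77 and 4.84 CPM in wild type, while the 8 other 3p arms summed to 8.47, 10.4 and 8.74 CPM against 13.4, 9.54 and 8.53 CPM and overlapped.

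At the intron end the arms differed. The 54 listed 3p arms there summed to 41.8, 51.4 and 66.3 CPM in ΔTUT4/7 and to 85.0, 79.1 and 74.9 CPM in wild type, so every ΔTUT4/7 library was lower. The 32 listed 5p arms summed to 29.8, 34.3 and 32.2 CPM in ΔTUT4/7 and to 31.5, 33.1 and 31.6 CPM in wild type. Their ranges overlapped and the ratio of the means was 1.00. With 3 libraries in each strain an exact permutation test of a sum could not go below p = 0.10, and none was run.

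CPM is a share of the library, so a gain of abundant miRNAs lowers all others. With the let-7 family and miR-98 left out of the totals, a setting chosen after the data were seen, the arms at the intron start kept apart by strain, with a ratio of means of 3.51. The 3p arms at the intron end then summed to 52.0, 63.6 and 82.2 CPM in ΔTUT4/7 and to 90.0, 83.9 and 80.0 CPM in wild type, a ratio of 0.779 with overlapping libraries. For the 5p arms there the ratio became 1.17, with every ΔTUT4/7 library above every wild type one.

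**Figure D3:**
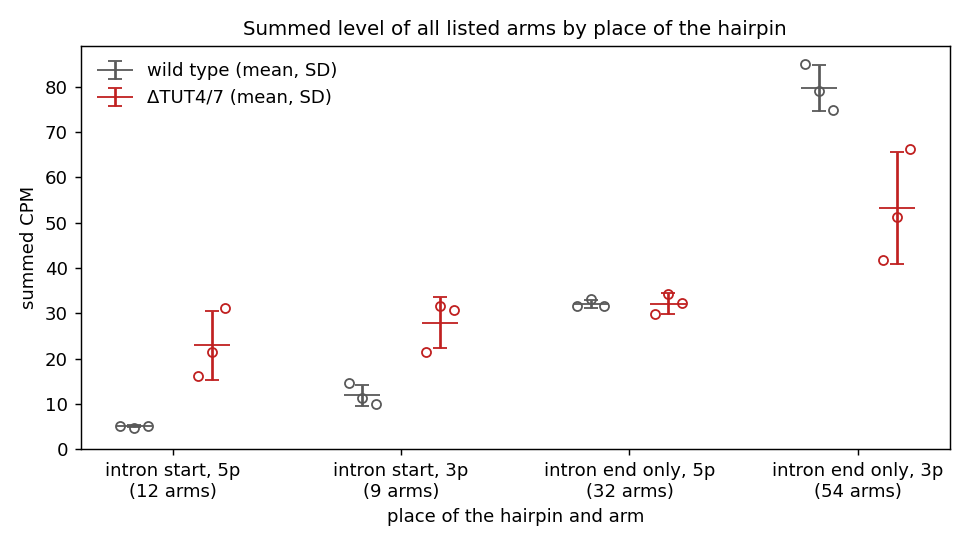
Summed CPM over all listed arms, by place of the hairpin and by arm, with 1 open point per library and the mean and SD of 3 libraries. The 5p and 3p sums at the intron start are higher in the ΔTUT4/7 libraries, the 3p sum through miR-6765-3p, the 54 3p arms at the intron end are lower, and the 32 5p arms there overlap.

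The mature sequences of the increased arms from hairpins at the intron start are shown first, with the seed (bases 2 to 8, which pair with target mRNAs) in capitals. They lie at chr14:105150778-105150798 (minus strand), chr19:58550285-58550306 (plus), chr19:2434980-2435000 (minus), chrX:154450320-154450341 (plus) and chr19:49832076-49832096 (plus). The other increased arms of this kind are miR-6821-5p, miR-6850-5p and miR-6892-5p.
miR-6765-3p: uCACCUGGcuggcccgcccag
miR-6807-5p: gUGAGCCAguggaauggagagg
miR-7108-5p: gUGUGGCCggcaggcgggugg
miR-6858-5p: gUGAGGAGgggcuggcagggac
miR-6800-3p: cACCUCUCcuggcaucgcccc

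The 5p arms among them begin with the GU of the splice donor, and their seeds start at its second base. No 2 of the 111 arms share a seed, so the 22 called arms have 22 different ones.

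miR-6765-3p, from the intron of JAG2, was the most abundant called arm. It had 66, 102 and 103 counts in ΔTUT4/7 replicates 1, 2 and 3 and 5, 14 and 6 counts in wild type. Every ΔTUT4/7 library was far above every wild type one. The means were 18.7 ± 4.97 CPM and 1.42 ± 0.314 CPM (SD, n = 3 each). The log2 fold change was 3.64 (standard error, SE, 0.33, adjusted p = 3.21e-06 by edgeR). Its 5p arm had 3, 4 and 2 counts against 0, 0 and 1 and was not tested.

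miR-6807-5p lies in TRIM28 and was the second most abundant increased arm. It had 24, 34 and 24 counts in ΔTUT4/7 and 6 counts in each wild type library, and its log2 fold change was 2.33 (SE 0.38, adjusted p = 0.000445 by edgeR). Its levels did not overlap between the strains at 5.64 ± 1.25 and 1.17 ± 0.357 CPM (SD, n = 3 each). The 3p arm of the same hairpin had 4, 11 and 6 counts against 4, 3 and 1, and its log2 fold change was 1.53 (SE 0.69, adjusted p = 0.0873 by edgeR).

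miR-7108-5p, from LMNB2, had 12, 13 and 26 counts in ΔTUT4/7 and 1, 8 and 1 in wild type, and its log2 fold change was 2.56 (SE 0.59). miR-6821-5p, from PIM3 (a serine/threonine kinase), had 8, 9 and 18 counts against 4, 3 and 1, and its log2 fold change was 2.26 (SE 0.62). The highest wild type level of both was below the lowest ΔTUT4/7 level. miR-6800-3p, from MED25 (a Mediator subunit), had 12, 10 and 15 counts against 3, 6 and 3, and its log2 fold change was 1.80 (SE 0.46).

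The other 3 increased arms at the intron start were almost without wild type counts, so their size is given as a ratio of pooled rates with an exact 95% interval, which covers counting error only. miR-6850-5p, from RPL8 (a protein of the large ribosomal subunit), had 7, 14 and 28 counts against 0, 1 and 1, a ratio of 28.1 (7.38 to 239). miR-6858-5p, from FAM50A, had 12, 7 and 22 counts against 2, 0 and 0, a ratio of 23.5 (6.11 to 201). Its partner miR-6858-3p went the other way in its few counts, with 1, 0 and 1 against 0, 4 and 5, and was not tested. miR-6892-5p, from ZYX (the focal adhesion protein zyxin), had 2, 5 and 10 counts against 1, 0 and 0, a ratio of 19.5 (3.06 to 815).

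Not every hairpin at the intron start rose. miR-6857-3p, from SMC1A (a cohesin subunit), had 17, 10 and 9 counts in ΔTUT4/7 and 32, 44 and 17 in wild type, and fell by 1.17 on the log2 scale (SE 0.35, adjusted p = 0.0177 by edgeR). This call was lost by limma-trend and with let-7 and miR-98 left out of the totals. It was also lost without ΔTUT4/7 replicate 2, ΔTUT4/7 replicate 3 or wild type replicate 1. miR-6816-5p, from TRMT2A, had 2, 2 and 3 counts against 4, 8 and 4 and was not called (log2 fold change -0.95, SE 0.63). miR-6786-3p, from HGS, had 5, 8 and 3 counts against 7, 8 and 6, and its libraries overlapped. In all 3 the hairpin begins 4 to 9 nt inside the intron. Among hairpins that begin on its first base, the untested miR-6792-5p, from CAMSAP3, had 1, 1 and 2 counts against 2, 4 and 3, lower in each ΔTUT4/7 library, and the untested miR-6831-5p, from APBB3, had 2, 3 and 1 against 2, 2 and 3.

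The called arms at the intron end are shown with the seed in capitals, the 3 increased ones first. They lie at chr1:228397083-228397104 (minus), chr16:2463972-2463994 (plus) and chr6:35470558-35470579 (plus).
miR-6742-5p: aGUGGGGUgggacccagcuguu
miR-6768-5p: cACACAGGaaaagcggggcccug
miR-7111-3p: aUCCUCUCuucccuccucccag

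The decreased ones that follow lie at chr6:43434600-43434620 (plus), chr19:49009952-49009972 (plus), chr19:6736712-6736732 (minus), chr1:206474844-206474864 (plus), chr11:62789865-62789885 (plus), chr6:31633839-31633858 (plus), chr1:1296110-1296129 (minus) and chr16:2445397-2445419 (plus). The last sequence, miR-6857-3p at chrX:53405673-53405693 (minus), is the decreased arm of a hairpin at the intron start. The remaining decreased arms are miR-6842-3p and miR-7112-3p.
miR-6780b-3p: uCCCUUGUcuccuuucccuag
miR-6798-3p: cUACCCCCcaucccccuguag
miR-6791-3p: uGCCUCCUuggucuccggcag
miR-6769b-3p: cCCUCUCUgucccacccauag
miR-6748-3p: uCCUGUCCcugucuccuacag
miR-6832-3p: aCCCUUUUucucuuucccag
miR-6726-3p: cUCGCCCUgucucccgcuag
miR-6767-5p: uCGCAGACagggacacauggaga
miR-6857-3p: uGACUGAGcuucuccccacag

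Each printed 3p arm in the decreased set ends in AG and is rich in C and U, the bases that precede a splice acceptor. Such an end is common to most 3p arms here, called or not.

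Of the 10 decreased arms at the intron end, 9 were 3p arms, and 34 of the 52 tested arms there were 3p arms. Only miR-6780b-3p of the 10 passed the count limit in both strains. The others passed it in wild type only, so their sign leans on that limit. miR-6780b-3p, from ABCC10, had 5, 7 and 8 counts in ΔTUT4/7 and 17, 40 and 24 in wild type, or 1.38 ± 0.366 and 4.80 ± 0.860 CPM (SD, n = 3 each). It fell by 1.79 on the log2 scale (SE 0.36, adjusted p = 0.00179 by edgeR). miR-6798-3p, from RUVBL2, had 2, 6 and 2 counts against 12, 18 and 9 and fell by 1.74 (SE 0.53). All ΔTUT4/7 libraries of both were below all wild type ones.

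miR-6791-3p, from GPR108, had 1, 1 and 7 counts in ΔTUT4/7 and 8, 16 and 14 in wild type (log2 fold change -1.86, SE 0.66), with ΔTUT4/7 replicate 3 close to the wild type level. miR-6748-3p, from TMEM179B, had 0, 3 and 3 counts against 8, 21 and 4 (log2 fold change -2.12, SE 0.75). miR-6832-3p, from PRRC2A, had 1, 2 and 1 counts against 8, 8 and 7 (log2 fold change -2.28, SE 0.69). These arms rest on few ΔTUT4/7 counts, and their standard errors are accordingly wide.

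miR-6769b-3p, from IKBKE (a kinase of the innate immune response), had 1, 1 and 2 counts against 6, 9 and 6 (log2 fold change -2.12, SE 0.68). miR-7112-3p, from BOP1 (a ribosome assembly factor), had 2, 2 and 0 counts against 6, 10 and 9 (log2 fold change -2.38, SE 0.75). Both were lower in all 3 ΔTUT4/7 libraries. The rest had 3 pooled ΔTUT4/7 counts or fewer. miR-6842-3p, from PTK2B (a tyrosine kinase), had 0, 2 and 1 counts against 9, 9 and 4, a pooled rate 6.39 times higher in wild type (1.92 to 33.4). miR-6726-3p, from ACAP3, had 0, 0 and 2 against 4, 16 and 5, a rate 10.9 times higher (2.72 to 94.9).

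miR-6767-5p, from CCNF (cyclin F), was the only decreased 5p arm. It had no count in any ΔTUT4/7 library and 3, 9 and 2 counts in wild type, so it was at least 4.07-fold lower, with the bound set from a floor of 3 counts over the pooled ΔTUT4/7 libraries. The exact 95% interval of the pooled ratio, which also covers the error of the wild type counts, reaches down to 2.89.

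The 3 increased arms at the intron end were each a different case. miR-6742-5p, from TRIM11 (a ubiquitin ligase), had 9, 5 and 5 counts in ΔTUT4/7 and none in wild type, at least 7.27-fold higher by the same floor over the wild type libraries (the exact interval reaches down to 5.35). miR-6768-5p, from TEDC2, had 24, 25 and 17 counts against 6, 9 and 1, and its log2 fold change was 2.23 (SE 0.45, adjusted p = 0.00182 by edgeR). miR-7111-3p, from RPL10A (a protein of the large ribosomal subunit), had 6, 5 and 15 counts against 3, 4 and 1, and its log2 fold change was 1.86 (SE 0.67, adjusted p = 0.0408 by edgeR). This last call was lost by DESeq2 (adjusted p = 0.0795), by limma-trend, where the change was under 2-fold, with the GC trend removed (edgeR adjusted p = 0.0525) and without any 1 of the wild type libraries.

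Single libraries mattered at these counts. Of the 11 increases, 7 remained called whichever of the 6 libraries was dropped: miR-6765-3p, miR-6768-5p, miR-6800-3p, miR-6807-5p, miR-6850-5p, miR-6858-5p and miR-7108-5p. Of the 11 decreases only miR-6780b-3p did. The other arms lost their call, or fell under the count limit, without at least 1 library. The number of decreased arms was 4 without ΔTUT4/7 replicate 1, wild type replicate 1 or wild type replicate 2, and 7 without ΔTUT4/7 replicate 3. The number of increased arms stayed between 8 and 11.

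Read by arm, 8 of the 27 tested 5p arms were increased and 1 was decreased (median log2 fold change 0.25), while 3 of the 42 tested 3p arms were increased and 10 were decreased (median -0.77). Among all 322 tested 5p arms of the table, 60 were increased and 44 decreased with a median of 0.070, and among all 350 tested 3p arms 45 were increased and 53 decreased with a median of -0.15. The arms and the place of the hairpin go together, as 6 of the 8 increased 5p arms came from hairpins at the intron start. At the intron end alone, 2 of 18 tested 5p arms were increased and 1 decreased (median -0.37), and 1 of 34 tested 3p arms was increased and 9 decreased (median -0.94). The median of the 5p arms was -0.093 without wild type replicate 1, so its sign rests on that library.

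**Figure D4:**
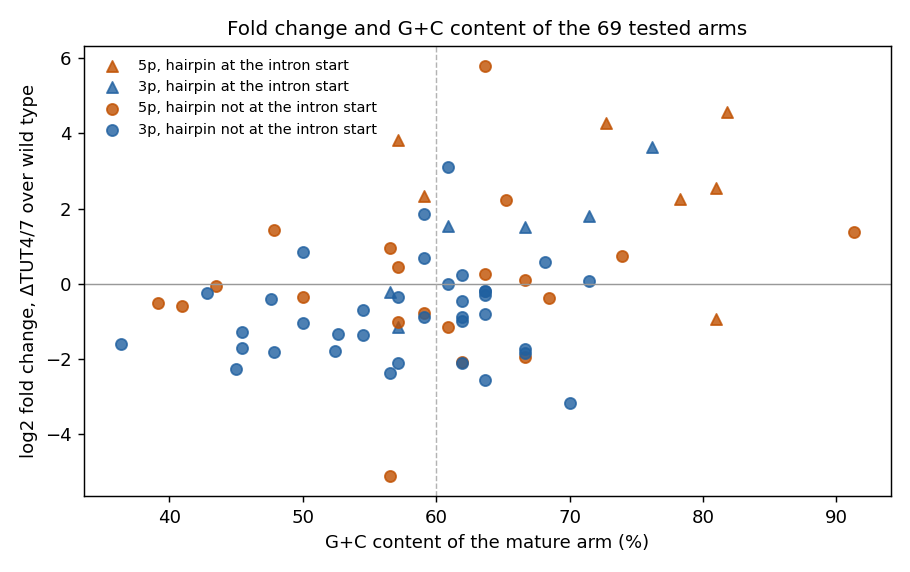
log2 fold change (ΔTUT4/7 over wild type) against the G+C content of the mature arm for the 69 tested arms, with the limit of 60% as a dashed line. Triangles mark hairpins at the intron start, and circles mark the others. Of the 13 triangles 10 lie above 0, and of the 56 circles 40 lie below it.

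GC-rich arms, with at least 60% G+C, were called in both directions. Of 36 tested, 8 were increased and 5 decreased, with a median log2 fold change of 0.028, while of the 33 other arms 3 were increased and 6 decreased, with a median of -0.71. Over the whole table, 40 of 187 GC-rich miRNAs (21.4%) were increased and 16 (8.56%) decreased, with a median of 0.43, and the share increased was close to the 22.2% of the 36. The other 639 had a median of -0.078. The median of the GC-rich arms ran from -0.45 without ΔTUT4/7 replicate 3 to 0.67 without wild type replicate 2.

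Across the 69 tested arms, Spearman's rho of G+C content with the log2 fold change was 0.35, and across the 52 arms at the intron end alone it was 0.085. Within the 27 tested 5p arms it was 0.32 and within the 42 tested 3p arms 0.30. Over all 826 tested miRNAs it was 0.18. All these points come from the same 6 libraries, and the hairpins at the intron start were also the richer in G+C, with a median of 66.7% over their 21 listed arms against 59.1% over the 86 at the intron end. Of the GC-rich arms at the intron end, 2 of 23 were increased and 5 decreased (median -0.38).

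Most arms with the highest levels were not called, as was true of most tested miRNAs. Both arms of miR-6720, which lies in no annotated intron on its strand (hairpin at chr6:1390314-1390411, minus strand), were the most abundant. miR-6720-5p had 144, 165 and 185 counts in ΔTUT4/7 and 103, 155 and 80 in wild type, which gave a log2 fold change of 0.74 (SE 0.21, adjusted p = 0.0118 by edgeR). miR-6720-3p had 29, 46 and 63 counts against 75, 159 and 57, which gave a log2 fold change of -0.82 (SE 0.30, adjusted p = 0.0422 by edgeR). Both stayed under the 2-fold limit and so were not called, with fold changes of opposite sign.

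Of the other arms among the 10 with the highest mean level, 3 are described above (miR-6765-3p, miR-6807-5p and miR-6857-3p) and 5 were not called, 4 of which follow. miR-6868-3p, from EXOC7 (a subunit of the exocyst), had 19, 23 and 23 counts against 28, 44 and 27, and miR-6803-3p, from PPP6R1, had 21, 17 and 28 against 24, 47 and 23. miR-6866-5p, from CASC3 (a core protein of the exon junction complex), had 21, 12 and 10 against 19, 33 and 18, and miR-6882-5p, from ULK3, had 9, 20 and 13 against 17, 30 and 15. The log2 fold changes of these 4 lay between -0.51 and -0.29. So 7 of the 10 arms with the highest mean level had no call. Over all 826 tested miRNAs, 16.5% were increased and 13.6% decreased, so this count does not set these arms apart.

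The balance between the arms of 1 hairpin was tested across the 200 hairpins of the table with both arms tested, with limma on the log2 ratio of 5p to 3p counts. The ratio had changed in 32 of them (16%, adjusted p under 0.05). Both arms were listed for 20 hairpins of the set and tested for 7, and the ratio changed in 1 of the 7, miR-6720. Its ratio was 4.90, 3.56 and 2.92 in ΔTUT4/7 replicates 1, 2 and 3 and 1.37, 0.975 and 1.40 in wild type, a difference of 1.59 on the log2 scale (SE 0.32, adjusted p = 0.0121 by limma). The adjusted p was 0.0590 without ΔTUT4/7 replicate 2 and 0.0527 with the replicate number as a block.

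**Figure D5:**
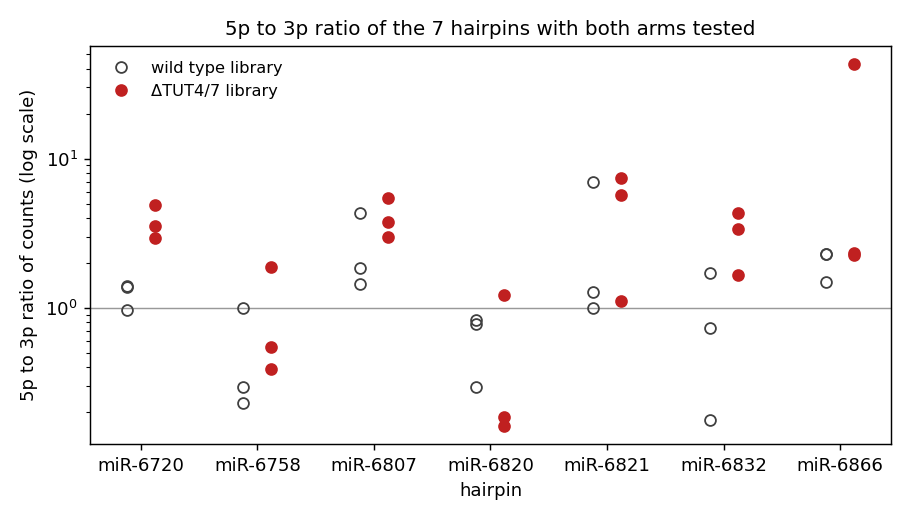
Ratio of 5p to 3p counts (0.5 added to each, log scale) in each library for the 7 hairpins with both arms tested. In miR-6720 the 3 filled ΔTUT4/7 points, at 2.92 to 4.90, lie above the 3 open wild type points, while in the other 6 hairpins the strains overlap.

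The other 6 hairpins were miR-6758, miR-6807, miR-6820, miR-6821, miR-6832 and miR-6866, whose limma adjusted p lay between 0.175 and 0.692. For miR-6832 the difference was 2.27 on the log2 scale with an SE of 1.01, and its 5p arm had 6, 8 and 2 counts against 1, 14 and 5. Both arms of miR-6758, from MARS1 (a tRNA synthetase), had log2 fold changes above 0 (5p 1.43, 3p 0.84) and neither was called. miR-6820-5p and miR-6820-3p, from POLR2F (an RNA polymerase subunit), had -0.38 and 0.68. miR-6821-3p had 1, 8 and 2 counts against 3, 0 and 1, and miR-6866-3p had 0, 5 and 4 against 8, 14 and 12, neither of them called. The SEs of the 6 differences ran from 0.68 to 1.14 on the log2 scale.

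Mirtrons with other names gave medians of the same sign, though single arms went both ways, with 2 of the 12 tested classic arms below 0. The 14 listed arms of classic mirtrons, from 8 hairpins (miR-877, miR-1224, miR-1226 to miR-1229, miR-1236 and miR-1237), included 12 tested ones, of which 4 were increased and none decreased, with a median log2 fold change of 0.77. Over all miRNAs outside the set, 14 tested arms came from hairpins at the intron start, with 5 increased, none decreased and a median of 0.77, but 12 of these 14 are the same classic arms. The 24 tested arms at the intron end had 3 increased, 7 decreased and a median of -0.89. For comparison, 202 tested miRNAs from miR-3000 to miR-5999 had 36 increased, 20 decreased and a median of 0.32. The differences between these sets were not tested.

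Summed over all 18 listed arms at the intron start outside the set, the level was 426, 567 and 739 CPM in ΔTUT4/7 and 302, 298 and 325 CPM in wild type. Without miR-877, it was 337, 461 and 608 CPM against 237, 203 and 187 CPM. Neither pair of ranges overlapped. Most of this level came from 2 tested arms that were not GC-rich, with a median of 149 CPM. The 12 tested GC-rich arms had a median of 2.44 CPM. These sums therefore do not show a rise shared by the arms.

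The 42 untested arms, 19 5p and 23 3p, had mean levels of at most 0.931 CPM. Their pooled rate was higher in ΔTUT4/7 for 8 of the 19 and for 9 of the 23. Among them, miR-6800-5p had 3, 5 and 7 counts against 0, 1 and 2, and miR-6789-3p, from a hairpin spanning an intron of PLEKHJ1, had 1, 2 and 1 against 5, 4 and 2. No library had more than 7 counts of any of the 42. With no limit on the counts, 1 of them was called as decreased by edgeR.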

How the data were processed

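Small RNA of 3 ΔTUT4/7 and 3 wild type libraries was prepared with a QIAseq miRNA kit. Reads were cut to 18 nt by the authors, mapped to hg38 (Bowtie 1.0.0) and assigned to miRBase 22 entries in Partek Flow 10.0.22, with versions from the processing notes of the submitters. The deposited values are estimated counts in whole numbers, where the authors' expectation-maximization step divides reads that match several miRNAs. The wild type cells of miR-16-5p are rounded to 3 digits. No arm of the set shares its first 18 nt with another listed miRNA. The authors' own comparison (p-values, FDR, ratios, fold changes, strain means) was not used. How molecular identifiers were treated was not given in the sources used here.

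CPM was computed here from the deposited counts over each library's total. edgeR 4.0.16 (R 4.3.3; library size the total, factors 1, common dispersion 0.0358) and limma 3.58.1 were checked on simulated counts. p-values measure the spread between these libraries. Alternatives used DESeq2 1.42.0, limma-trend, other scalings, filters and left-out libraries. The rule named all called arms, the 10 with the highest mean CPM (an arm among them, and an untested arm, are not reported here), and both arms of hairpins with both tested. miR-6816-5p, miR-6786-3p, miR-6792-5p, miR-6831-5p, miR-6858-3p, miR-6765-5p, miR-6800-5p and miR-6789-3p were named after their values were seen. Members and lists were chosen with earlier results of these data known. The place of a hairpin used the hairpin's ends, since most hairpins list 1 arm, against GENCODE 44. Arms were read from hg38, and 897 of 897 with a RefSeq entry were identical to it.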

Additional observations from a re-analysis of the deposited data

How the results depend on the processing

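Replicate numbers shared by the strains showed no sign of pairing, as the correlations of same-numbered deviations were -0.13, -0.10 and -0.17. The labels do not say whether the libraries were prepared in pairs, and these values cannot settle it. With the replicate block, 10 members were increased and 9 decreased (without miR-7111-3p, miR-6748-3p and miR-6769b-3p), and 0 hairpins had a changed arm ratio. Decreased members numbered 5 by limma-trend, 4 with a mean count above 7, 2 with filterByExpr and 22 at 2-fold without any limit on p, and increased ones 4 with filterByExpr, which kept 17 members. Increases at the intron start were 3 with filterByExpr. Totals without let-7 and miR-98 gave 12 increased members and 8 decreased ones (without miR-6748-3p, miR-6791-3p and miR-6857-3p). The 3p median was -0.55 with totals without let-7 and miR-98 (which moved the median of all tested miRNAs from 0.013 to 0.23), -0.33 by limma-trend, -0.47 unfiltered, -0.34 with filterByExpr and -0.38 with a mean count above 7. The 5p median was 0.017 unfiltered, 1.48 with filterByExpr and 0.94 with a mean count above 7. The median of arms that were not GC-rich was, in the order of the 3p alternatives, -0.50, -0.41, -0.43, -0.47 and -0.42, and -0.88 and -0.55 with GC-rich from 55% and 65%, where GC-rich arms had 0.74 at the latter. At the intron start the median was 1.69 with the GC trend removed, 1.04 by limma-trend and 1.53 unfiltered. With each library left out in turn, increased members ran from 8 to 11, decreased from 4 to 9, increases at the intron start from 6 to 8, changed arm ratios from 0 to 1, and the medians from -0.093 to 0.97 (5p), -0.90 to -0.53 (3p), -0.45 to 0.67 (GC-rich), -0.84 to -0.53 (others) and 1.79 to 2.47 (intron start). No called member changed sign in any of these fits. The cause of these shifts was not tested. The settings also differed in the members tested, with 111 unfiltered, 35 with a mean count above 7 and 17 with filterByExpr, beside 69 in the main fit. Without wild type replicate 2, 55 were tested. Alternatives for hairpins at the intron start were added after the data were seen.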
